A study of Mus musculus with 8 samples.

Results

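The genes described here are 47 nucleolar proteins and ribosome assembly factors of the mouse, taken by name and ordered by what their products do. These 47 genes were chosen with earlier results of these data known. A gene was measured where a probe set of the array carried its symbol and no other, which held for 43 of the 47, out of 12394 genes measured in all. Dkc1, Nob1, Utp14a and Mrto4 were unmeasured by that rule, and the single probe set of Rrp9 was too dim to be tested, so 42 genes were compared between the groups. The cells were C2C12 myotubes, made from a mouse myoblast line that stops dividing and fuses in medium with 2% horse serum. The 4 starved arrays (E to H) came from myotubes that were fed for the last time on day 4 of differentiation and then went 4 days without fresh medium. The 4 control arrays (A to D) came from myotubes re-fed every 48 h over the same time, and RNA of both groups was taken on day 8. The comparison asks how mRNAs of ribosome production differ between fed and unfed myotubes, and the labels place the study under muscle atrophy. Whether the arrays of a group came from separate dishes is not stated, and the spread that the p-values rest on may therefore be technical. All groups derive from 1 cell line, and the starved cells kept their old medium rather than a medium without nutrients.

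Ribosomes are built in the nucleolus. RNA polymerase I transcribes a long precursor of the ribosomal RNAs, small nucleolar ribonucleoproteins (snoRNPs) guide its methylation and pseudouridylation, and a large processome together with many GTPases, helicases and scaffold proteins folds and cuts it into the small (40S) and large (60S) subunits. The transcription factor Myc is known to raise many of these genes in growing cells, and in muscle, ribosome number is known to follow growth and wasting.

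Values are log2 signals after quantile normalization of the arrays. Fold changes are starved over control on that scale, with standard errors (SE) from limma's linear model, and p-values were adjusted by the Benjamini-Hochberg method across the 13575 probe sets that were tested. A change past an adjusted p of 0.05 is counted as a rise or a fall. The starved arrays were dimmer as deposited, with a difference in log2 trimmed mean of -0.38 (two-sided p = 0.0857 by exact permutation of the 8 arrays). Control B stood apart in the log2 ratio of 3′ to 5′ signal for Gapdh, at 1.40. This ratio was -0.23 to -0.04 in the starved arrays and -0.22 to -0.12 in the other controls. It is an indirect sign of RNA quality and rests here on 1 gene. All 14 myotube markers of a fixed list were bright enough to be tested, with a summed signal of 111599 to 115848 units in starved arrays and 119771 to 121333 units in control arrays. Of these 14, Des fell and none rose. Each sum, here and below, covers every listed gene with a probe set, whether tested or too dim. Of the markers of other cells, cycling-cell genes (12 of 18 tested) summed to 3152 to 3670 units in starved arrays and 4533 to 4906 units in control arrays, and fibroblast genes (9 of 9 tested, of which Dcn rose and Col1a1, Pdgfrb and Postn fell) to 9954 to 11618 units in starved arrays and 12255 to 13810 units in control arrays. Sums overlapped between the groups for undifferentiated myoblasts (7 of 9 genes tested, of which Notch1 rose by 0.53 and Hes1 fell by 0.70; 5411 to 7132 units in starved arrays, 6168 to 7445 units in control arrays), adipocytes (1 of 7 tested; 192 to 285 units in starved arrays, 162 to 248 units in control arrays) and immune cells (3 of 7 tested; 619 to 903 units in starved arrays, 608 to 741 units in control arrays). No marker was listed at 0, but 4 of the 5 adipocyte and 3 of the 6 immune markers with a probe set were too dim to be tested. The part of these markers in the results below was not tested, and in bulk RNA, fewer cells of a type and less RNA per cell cannot be told apart.

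Relative to other genes, starved myotubes had more mRNA of several of the chosen genes. These included genes of box C/D (2 of 3) and box H/ACA snoRNP proteins (2 of 3). They also included genes of nucleolar organisation and scaffold proteins (4 of 6) and of 60S assembly factors (6 of 12). Smaller shares rose among genes of the small-subunit processome and 40S assembly (2 of 9) and of RNA polymerase I (1 of 4). Of the nucleolar RNA helicases 1 of 2 rose, and of the Pes1-Bop1-Wdr12 complex 0 of 3 subunits passed the test. Among 70 other tested genes of 40S and 60S assembly 2 rose (2.86%), so the counts describe the chosen genes and not their classes. Of the 42 tested genes 18 rose and 0 fell in limma's test, and at an unadjusted p under 0.05 these numbers were 26 and 0. Among all 8352 genes tested, 4.25% rose and 6.93% fell, and 925 were higher and 1100 lower at an unadjusted p under 0.05. The 18 rises ran from 1.27-fold (Npm1) to 2.66-fold (Rrp12). The median log2 fold change of the 42 genes was 0.37, against 0.01 over all tested genes, and 41 of the 42 values were above 0. All 4 starved arrays lay above all 4 control arrays for 23 of the 42 genes, against 8.2% of all tested genes, and below all of them for 0, against 10.3%. The number that rose depended on the scaling between arrays, while 0 fell under each. With arrays centred on their 75th percentile 14 of the genes rose, where 3.44% of all genes rose and 6.16% fell, and with median centring 11 rose, where 2.6% of all genes rose and 6.64% fell. With centring on the spiked-in hybridisation controls 2 rose (Nop58 and Rrp12), where 1.21% of all genes rose and 9.79% fell, and in unscaled values Rrp12 alone rose, where 0.539% of all genes rose and 12.3% fell. In unscaled values 21 of the 42 fold changes were below 0, but the median of all genes there was -0.34. Without control A 11 genes rose in quantile-normalized values, and without starved F 12.

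**Figure D1:**
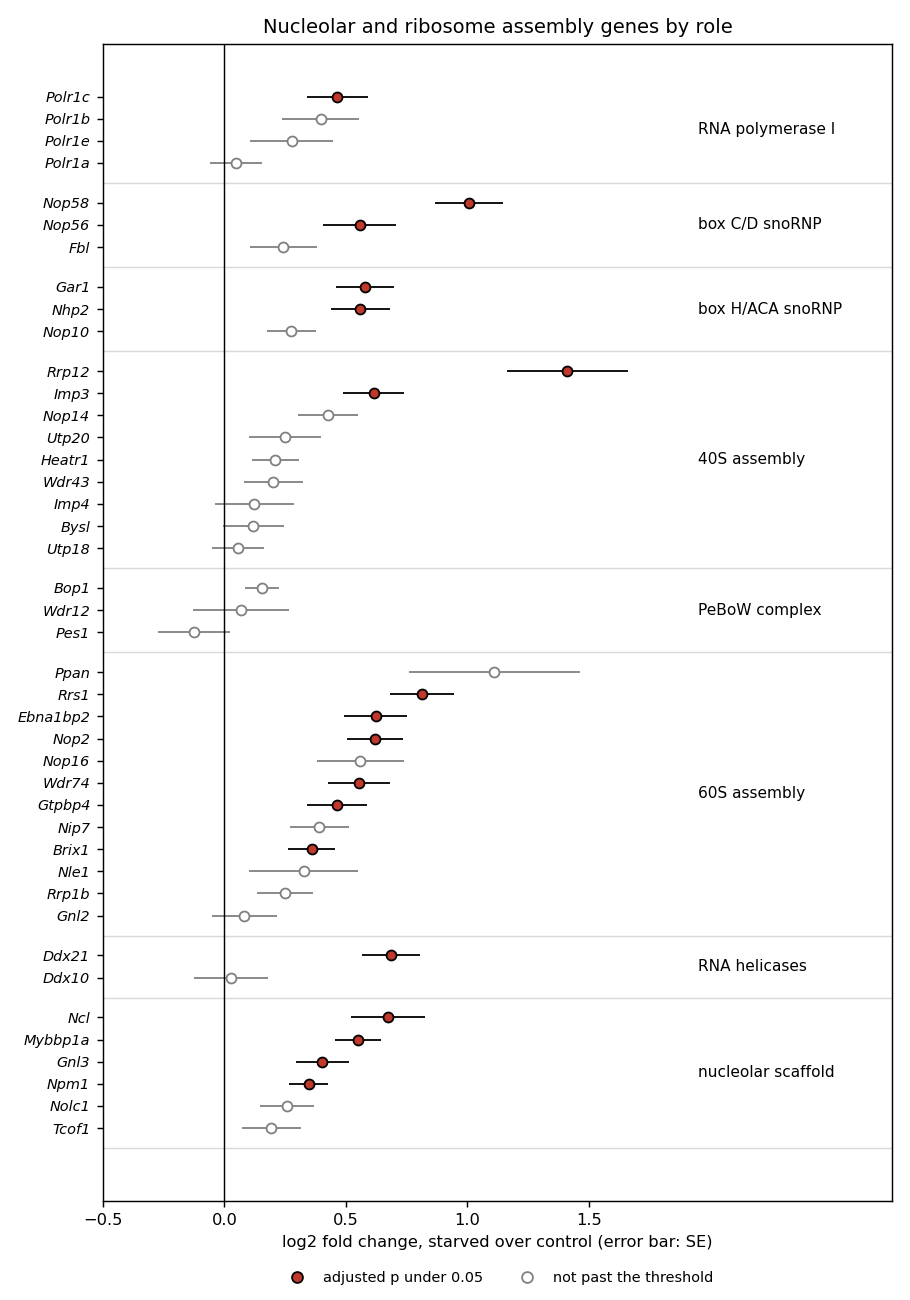
Log2 fold change (starved over control) of the 42 tested genes, by role, with the SE as error bar and filled points for an adjusted p under 0.05. 41 of the 42 points lie right of 0 in quantile-normalized values (21 in unscaled values), and the filled ones run from Npm1 to Rrp12.

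In quantile-normalized values the difference was seen on each of the 8 arrays. Relative to each gene's mean over the 8 arrays, the median of the 42 genes was 0.20, 0.17, 0.24 and 0.15 in starved arrays E to H, against -0.26, -0.11, -0.17 and -0.18 in control arrays A to D. The medians of the other tested genes stayed between -0.005 and 0.055 on all 8 arrays. Between 35 and 37 of the 42 genes were above their own mean on each starved array, and between 4 and 15 on each control array, the 15 being control B. Control B was the highest control for 19 of the genes and the lowest for 14. Without it 19 of 42 genes rose, against 4.44% of all genes. The signs of the array medians depended on the scaling. In unscaled values the median of the 42 genes was -0.24, -0.09, 0.04 and 0.33 in starved arrays E to H. It was 0.20, -0.20, -0.14 and 0.17 in control arrays A to D. Each starved median was still above, and each control median below, that of the other tested genes on the same array.

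**Figure D2:**
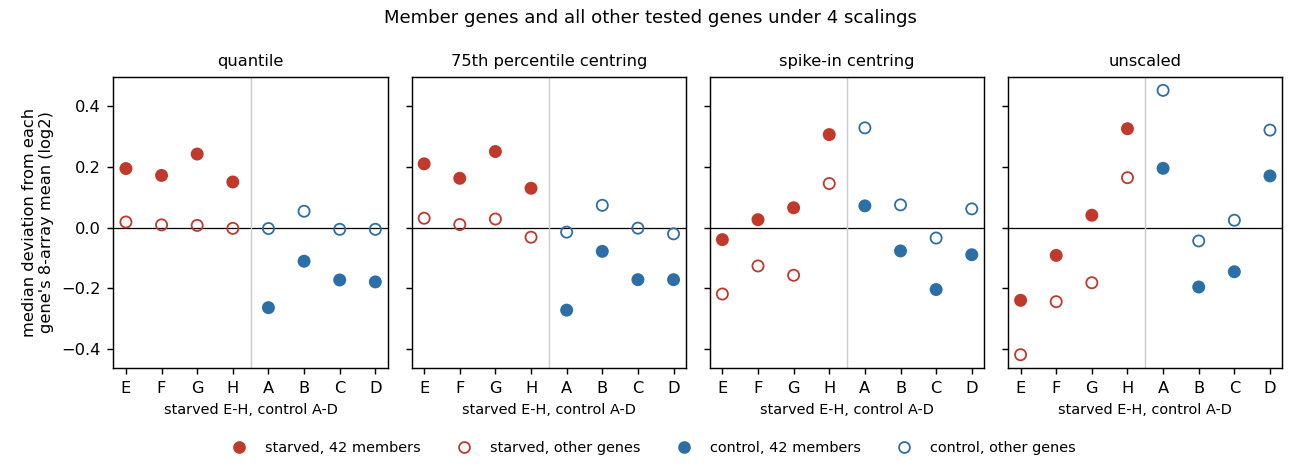
Median deviation from each gene's 8-array mean (log2) of the 42 genes (filled) and of all other tested genes (open) on starved arrays E to H (left, red) and control arrays A to D (right, blue) under 4 scalings. With quantile scaling the filled points lie above the open ones on each starved array and below them on each control array; the other 3 panels differ from each other by 1 constant per array, which fixes the gap between filled and open points. All starved filled points lie above 0 and all control ones below in the quantile and 75th percentile panels, and not in the other 2.

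The promoters of 4 of these genes are printed because they carry letters bound by known growth regulators, in genes that rose (Nop2, Ebna1bp2, Mybbp1a) and in one that did not (Pes1). They come from RefSeq (assembly GRCm38.p6) and run 5′ to 3′ from 250 bases before to 50 bases after the annotated start, all on the plus strand. Capitals mark CACGTG, the E-box that Myc and Max bind, and CCGGAAG or its reverse complement. The latter is a form of the ETS factor site, called the ETS core here. Shorter or variant forms of that site were neither marked nor counted.
Nop2, chr6:125131633-125131932: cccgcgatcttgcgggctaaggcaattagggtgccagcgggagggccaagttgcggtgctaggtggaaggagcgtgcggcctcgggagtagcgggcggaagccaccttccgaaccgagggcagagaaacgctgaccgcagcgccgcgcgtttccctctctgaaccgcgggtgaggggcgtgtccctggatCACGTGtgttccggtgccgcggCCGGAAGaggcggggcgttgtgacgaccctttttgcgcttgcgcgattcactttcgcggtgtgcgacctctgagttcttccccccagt
Ebna1bp2, chr4:118620549-118620848: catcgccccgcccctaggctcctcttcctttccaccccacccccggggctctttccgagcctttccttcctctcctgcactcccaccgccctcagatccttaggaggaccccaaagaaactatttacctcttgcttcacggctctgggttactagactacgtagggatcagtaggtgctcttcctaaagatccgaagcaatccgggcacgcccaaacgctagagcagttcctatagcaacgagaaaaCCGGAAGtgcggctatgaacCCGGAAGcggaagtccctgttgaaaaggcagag
Mybbp1a, chr11:72441077-72441376: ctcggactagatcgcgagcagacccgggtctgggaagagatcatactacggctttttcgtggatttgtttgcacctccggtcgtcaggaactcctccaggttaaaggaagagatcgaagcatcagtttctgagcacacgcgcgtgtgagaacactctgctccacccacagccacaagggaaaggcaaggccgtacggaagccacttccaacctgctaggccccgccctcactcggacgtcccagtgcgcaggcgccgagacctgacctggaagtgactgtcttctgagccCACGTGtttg
Pes1, chr11:3963725-3964024: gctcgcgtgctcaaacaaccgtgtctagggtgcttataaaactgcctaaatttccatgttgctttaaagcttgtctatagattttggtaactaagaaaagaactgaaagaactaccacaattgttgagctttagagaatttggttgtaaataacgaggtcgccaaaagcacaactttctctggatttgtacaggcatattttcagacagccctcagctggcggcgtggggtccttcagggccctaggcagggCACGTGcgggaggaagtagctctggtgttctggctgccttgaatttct
The E-box starts at -60 in Nop2, at 40 in Mybbp1a and at 2 in Pes1, counted from the start site, and the ETS core starts at -38 in Nop2 and at -3 and 17 in Ebna1bp2. Of the 47 genes 40 had a promoter in the table. Among them Dkc1, Mrto4, Nob1, Rrp9 and Utp14a were not tested and held neither E-box nor ETS core. Rrp12, Rrs1 and Npm1, which rose, had no promoter there. The E-box was in 8 of these 40 genes (20%), against 12.1% of the 6777 tested genes with a promoter, and in 2 of the 15 genes that rose against 6 of the 20 tested genes that did not. The ETS core was in 14 of 40 (35%), against 20.3% of the tested genes, and in 7 of the 15 that rose against 7 of the 20 that did not. Among 69 other genes of 40S and 60S assembly the E-box was in 20.3% and the ETS core in 49.3%, so neither share was higher in the 40 genes than in these related ones. Over all 32851 promoters of the table, whatever their gene, the shares were 7.15% and 8.86%. GCATGCG, part of the NRF1 site, was in 2 of the 40 genes (5%), against 7.58% of the tested genes. ATGGCGG, part of the YY1 site, was in 5 of 40 (12.5%), against 9.52% of the tested genes. Both strands were searched, and no matches of different motifs overlapped in these promoters. These shares describe letters in a window and were not tested.

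Among subunits of RNA polymerase I, Polr1c rose and the other 3 did not pass. Polr1c, which this enzyme shares with RNA polymerase III, was at 8.83, 8.60, 8.87 and 8.65 in starved arrays E to H, against 8.17, 8.56, 8.17 and 8.19 in control arrays A to D. The groups did not overlap, but control B stood close to the starved arrays and well above the other controls. The change was 0.46 ± 0.13 (SE), or 1.38-fold (adjusted p = 0.038). Its other probe set was at 0.34 (adjusted p = 0.123), and omitting control A, C or D, or any starved array, lost the call. Polr1b, a catalytic subunit, was at 8.38, 7.80, 7.89 and 8.08 in starved arrays and 7.57, 7.44, 7.64 and 7.92 in control arrays, with overlap between starved F or G and control D (0.40 ± 0.16, adjusted p = 0.16). The largest subunit, Polr1a, was at 8.84, 8.70, 8.58 and 8.73 in starved arrays and 8.57, 8.83, 8.58 and 8.69 in control arrays. These groups lay on top of each other (0.05 ± 0.11, adjusted p = 0.842). The associated subunit Polr1e was at 0.28 ± 0.17.

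In box C/D snoRNPs, which guide 2′-O-methylation of ribosomal RNA, both scaffold proteins rose. Nop58 was at 8.21, 8.47, 8.60 and 8.65 in starved arrays, against 7.54, 7.40, 7.27 and 7.68 in control arrays. Its groups were the most widely separated of the 42 genes, with 0.53 between the lowest starved and the highest control array. It rose 2.01-fold (1.01 ± 0.14, adjusted p = 0.00086), a call lost in unscaled values (adjusted p = 0.111) and in no other setting. Nop56, its partner, was at 9.52, 9.17, 9.87 and 9.55 in starved arrays and 8.88, 8.80, 9.21 and 8.99 in control arrays. Only starved F fell below a control array, control C. Nop56 rose by 0.56 ± 0.15 (adjusted p = 0.0361), and a further probe set rose by 0.87 (adjusted p = 0.00973). Omitting control A, B or D or starved E, G or H lost the call on the brighter probe set. Fbl, the methyltransferase of the particle, did not pass (0.24 ± 0.14, adjusted p = 0.316).

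In box H/ACA snoRNPs, which guide pseudouridylation and also hold telomerase RNA, 2 of the 3 tested proteins rose. Gar1 was at 9.39, 9.24, 9.34 and 9.13 in starved arrays, against 8.81, 8.41, 8.75 and 8.82 in control arrays. Nhp2 was at 10.42, 10.14, 10.56 and 10.14 in starved arrays, against 9.62, 9.98, 9.67 and 9.76 in control arrays. Neither gene had overlapping groups. Gar1 rose by 0.58 ± 0.12 (adjusted p = 0.00956) and Nhp2 by 0.56 ± 0.12 (adjusted p = 0.0129). The other Nhp2 probe set was at 0.38 (adjusted p = 0.0929). Nop10, the smallest protein of the particle, was at 0.28 ± 0.10 (adjusted p = 0.116). It passed without control B (adjusted p = 0.0198), while omitting any other array gave 0.106 to 0.262.

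The small-subunit processome and 40S factors held the largest rise of the 42 genes and several of the smallest changes. Rrp12, a repeat protein that in yeast is needed to export both subunits from the nucleus, was at 8.69, 8.34, 8.72 and 7.86 in starved arrays, against 6.56, 6.66, 7.36 and 7.40 in control arrays. Both groups were wide, with controls A and B low and starved H below the other starved arrays, yet 0.46 lay between them. Rrp12 rose 2.66-fold (1.41 ± 0.25, adjusted p = 0.00382), and it alone of the 18 genes passed under each alternative that tested it, with log2 fold changes from 1.07 in unscaled values to 1.59. Imp3, a protein of the U3 snoRNP, was at 9.48, 9.37, 9.47 and 9.21 in starved arrays, against 8.52, 8.96, 8.65 and 8.94 in control arrays. It rose by 0.62 ± 0.13 (adjusted p = 0.00926), while its partner Imp4 was at 0.12 ± 0.16 (adjusted p = 0.708). Nop14 of the processome was at 0.43 ± 0.12, just short of the threshold with no overlap between the groups (adjusted p = 0.0504). It passed without control C (adjusted p = 0.0403) or starved H (0.0398), while omitting any other array gave 0.0703 to 0.135. Utp18 was at 8.92, 9.06, 9.29 and 9.26 in starved arrays and 9.12, 8.99, 9.07 and 9.12 in control arrays. Starved arrays stood on both sides of the controls (0.06 ± 0.11, adjusted p = 0.808). Utp20, Heatr1, Wdr43 and Bysl, also of the processome or of 40S maturation, ran from 0.12 to 0.25 and did not pass. A dimmer probe set of Wdr43 did rise (0.67, adjusted p = 0.0155).

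**Figure D3:**
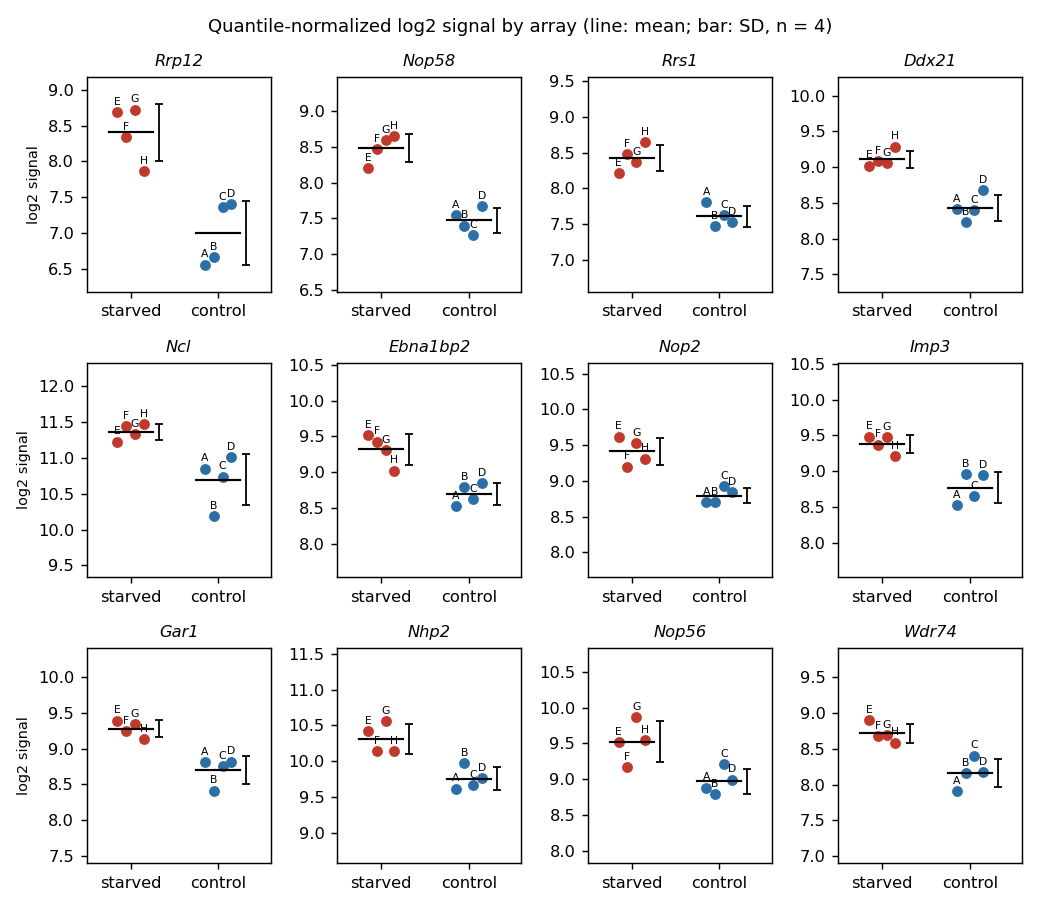
Quantile-normalized log2 signal of the 12 genes with the largest called change, on starved arrays (left, red, E to H) and control arrays (right, blue, A to D), each panel spanning the same log2 range, with group mean (line) and SD (bar, n = 4). The groups are separate in all panels but that of Nop56, where starved F lies just below control C.

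Among 60S assembly factors 6 of the 12 tested genes rose. Rrs1, which in yeast helps to place the 5S ribonucleoprotein, was at 8.21, 8.48, 8.37 and 8.64 in starved arrays, against 7.81, 7.48, 7.63 and 7.53 in control arrays. Nop2, a ribosomal RNA cytosine methyltransferase and the owner of the promoter with both motifs above, was at 9.62, 9.20, 9.53 and 9.31 in starved arrays, against 8.70, 8.71, 8.92 and 8.84 in control arrays. Both genes had separate groups, with a rise of 0.81 ± 0.13 (1.76-fold, adjusted p = 0.00228) for Rrs1 and of 0.62 ± 0.12 (1.54-fold, adjusted p = 0.0055) for Nop2. Ebna1bp2, whose yeast counterpart acts early on the 60S precursor, was at 9.52, 9.43, 9.30 and 9.02 in starved arrays, against 8.52, 8.79, 8.62 and 8.85 in control arrays. It rose by 0.62 ± 0.13 (adjusted p = 0.0101), but its dimmer probe set was at 0.02 (adjusted p = 0.982), and averaged over its probe sets the gene did not pass (0.32, adjusted p = 0.261). Wdr74 was at 8.90, 8.68, 8.69 and 8.59 in starved arrays, against 7.91, 8.16, 8.40 and 8.17 in control arrays. Its groups were separate as well, and it rose by 0.55 ± 0.13 (adjusted p = 0.0179; 0.052 without control A and 0.0536 without starved E).

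The GTPase Gtpbp4 (0.46 ± 0.13, adjusted p = 0.037) and Brix1 (0.36 ± 0.10, adjusted p = 0.0389) completed the rises among 60S factors. Both calls depended on single arrays. That of Gtpbp4 was lost on omitting control A, B or C or starved F, G or H. The call of Brix1 was lost on omitting control A, C or D or any starved array. Median centring and 75th percentile centring lost both calls as well. The groups of Gtpbp4 overlapped slightly, and its dimmer probe sets were at 0.25 (adjusted p = 0.31) and 0.23 (adjusted p = 0.412). Averaged over its probe sets Gtpbp4 did not pass (adjusted p = 0.107). Brix1 stood at -0.034 in unscaled values. Ppan, the mammalian form of the yeast factor Ssf1, had a large difference that did not pass. It was at 7.14, 7.42, 7.95 and 7.38 in starved arrays and 6.53, 7.28, 6.30 and 5.34 in control arrays. The controls were spread over a wide range, and control B lay among the starved arrays. The control mean of 6.36 was itself under the signal filter of 6.61 (1.11 ± 0.35, adjusted p = 0.0729). Ppan passed without control B (adjusted p = 0.0127), while omitting any other array gave 0.0929 to 0.175. Nop16 (0.56 ± 0.18, adjusted p = 0.077) and Nip7 (0.39 ± 0.12, adjusted p = 0.0672) had separate groups but did not pass. Nip7 passed without control B (adjusted p = 0.0242), while omitting any other array gave 0.0707 to 0.174. Nle1, Rrp1b and the GTPase Gnl2 ran from 0.08 to 0.33 and did not pass, while another Rrp1b probe set rose (0.51, adjusted p = 0.0252).

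Of the Pes1-Bop1-Wdr12 complex (PeBoW), which processes the large-subunit RNA, 0 of 3 genes passed the test. Bop1 was at 11.05, 10.94, 10.89 and 10.90 in starved arrays and 10.82, 10.71, 10.84 and 10.79 in control arrays. Its groups were separate by a narrow margin (0.16 ± 0.07, adjusted p = 0.209; unadjusted p = 0.0492). Wdr12 was at 8.23, 8.35, 8.42 and 7.88 in starved arrays and 8.19, 8.65, 8.09 and 7.68 in control arrays. Pes1 was at 8.72, 8.87, 8.83 and 8.19 in starved arrays and 8.77, 8.83, 8.74 and 8.77 in control arrays. Both overlapped fully, at 0.07 ± 0.20 for Wdr12 and at -0.12 ± 0.15 for Pes1, the only one of the 42 genes below 0, where starved H was low. That 0 of 3 passed here and 6 of 12 among the chosen 60S factors above was not tested as a difference. Among 36 further genes of 60S assembly and export 1 rose.

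Of the 2 nucleolar helicases one rose. Ddx21, which acts in ribosomal RNA transcription and processing, was at 9.02, 9.09, 9.05 and 9.29 in starved arrays, against 8.41, 8.23, 8.39 and 8.67 in control arrays. The groups were separate, and the gene rose by 0.69 ± 0.12 (1.61-fold, adjusted p = 0.00356), with its dimmer probe set at 0.29 (adjusted p = 0.251). Ddx10 was at 7.66, 7.56, 7.70 and 8.05 in starved arrays and 7.64, 8.02, 7.56 and 7.65 in control arrays. It showed no separation (0.03 ± 0.15, adjusted p = 0.938).

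Among genes of nucleolar organisation and scaffold proteins 4 of 6 rose. Nucleolin (Ncl), an RNA-binding protein of the nucleolus, was at 11.23, 11.45, 11.33 and 11.47 in starved arrays, against 10.85, 10.18, 10.74 and 11.01 in control arrays. The groups were separate and control B was the lowest array. Ncl rose by 0.67 ± 0.15 (adjusted p = 0.016; 0.0511 without starved F). Its 3 dimmer probe sets were at 0.85, 0.21 and -0.83, none of which passed, and the mean of all was 0.22 (adjusted p = 0.506). Mybbp1a, which binds RNA polymerase I and the ribosomal RNA precursor, was at 9.89, 9.88, 10.03 and 9.98 in starved arrays, against 9.28, 9.60, 9.38 and 9.32 in control arrays. Here both probe sets rose, by 0.55 ± 0.10 (adjusted p = 0.00346) and 0.73 (adjusted p = 0.00303). Nucleophosmin (Npm1), a histone and ribosome chaperone, rose by 0.35 ± 0.08 (adjusted p = 0.0176) and by 0.50 (adjusted p = 0.00363) on its other probe set, with -0.033 for the first in unscaled values and calls lost without control A or starved F (adjusted p = 0.0503 and 0.0604). Nucleostemin (Gnl3), a nucleolar GTPase, rose by 0.40 ± 0.11 (adjusted p = 0.0407), a call lost on omitting control A, C or D or starved E, F or H. Nolc1, a chaperone of snoRNPs (0.26 ± 0.11), and Tcof1, a scaffold of ribosomal RNA transcription (0.19 ± 0.12), did not pass on their brightest probe set, although 1 of the 3 Tcof1 probe sets rose (0.67, adjusted p = 0.018).

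Other genes of the pathway, listed by function, had list medians of 0.01 to 0.20, apart from the Myc network at 0.36. The counts below stand against 4.25% of all 8352 tested genes that rose and 6.93% that fell, or 925 higher and 1100 lower at an unadjusted p. Among 34 further genes of the processome and 40S assembly 1 rose and 0 fell (9 and 1 at an unadjusted p under 0.05), with a median of 0.20, and among 36 further genes of 60S assembly and export 1 rose and 0 fell (12 and 1 unadjusted), with a median of 0.20. The genes that rose were Utp11 of the processome (0.43 ± 0.10, adjusted p = 0.0179) and the ribosomal RNA methyltransferase Ftsj3 (0.77 ± 0.18, adjusted p = 0.0197). For comparison, 9 of the 26 tested assembly factors and helicases described above rose, with a median of 0.34. That difference has no test, because the 47 genes were chosen with results of these arrays known. Of 16 exonuclease and RNase MRP genes Dis3 alone rose (0.39 ± 0.10, adjusted p = 0.0358; median 0.13, and 3 and 0 unadjusted). In limma's test 0 genes rose or fell among 12 further genes of RNA polymerase I (median 0.05; 1 and 1 unadjusted), among 8 partners of snoRNPs (median 0.01; 0 and 0 unadjusted) and among 13 genes of RNA polymerase III (median 0.04; 2 and 0 unadjusted). The call of Utp11 was lost without control C, starved F or starved G, that of Ftsj3 without control C or D or starved E, F or G, and that of Dis3 without any 1 of the 8 arrays. Without control B 10 genes of all these lists and of the Myc network rose, in place of 6 of 128.

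The 3 Myc family genes rose, which the other 6 tested genes of the Myc network did not. Myc was at 8.62, 8.46, 8.75 and 8.49 in starved arrays, against 7.52, 7.91, 7.52 and 7.72 in control arrays (0.91 ± 0.13, adjusted p = 0.000948). Mycn was at 7.80, 8.35, 8.21 and 6.30 in starved arrays, against 5.81, 5.99, 5.94 and 5.80 in control arrays (1.78 ± 0.38, adjusted p = 0.0125). Starved H was far below the other starved arrays for Mycn but still above all controls. The Mycn controls averaged 5.89, under the signal filter of 6.61, so the gene was tested only because its starved arrays were brighter, and it dropped out of the test without starved F or G. With no filter it still passed (adjusted p = 0.0255). Mycl was at 7.96, 8.04, 7.87 and 7.75 in starved arrays, against 5.98, 7.35, 7.07 and 7.08 in control arrays (1.03 ± 0.26, adjusted p = 0.0278). Its call was lost without starved E, F or G, and also with no filter (adjusted p = 0.054). In unscaled values the calls of Myc (adjusted p = 0.124) and Mycl (adjusted p = 0.0877) were lost and that of Mycn held. Of the cycling-cell markers, all 12 tested were below 0 (median -0.27), with Cdk1 (-0.82 ± 0.13, adjusted p = 0.00159) and Rrm2 (-0.83 ± 0.09, adjusted p = 0.000103) past the threshold.

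**Figure D4:**
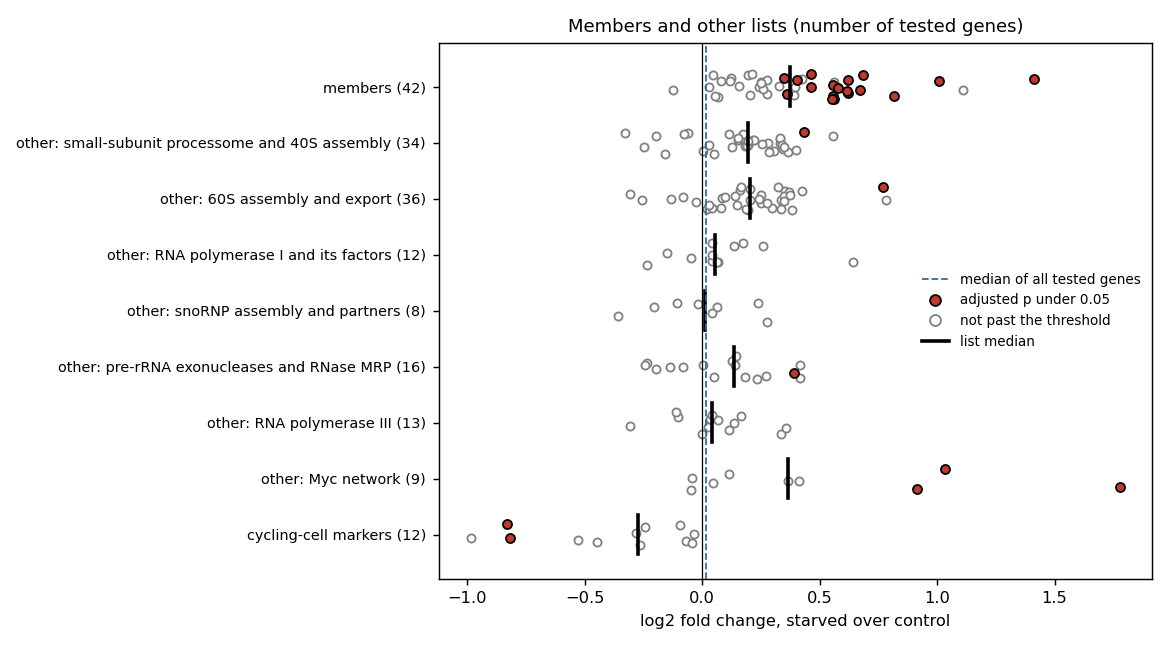
Log2 fold change (starved over control) of each tested gene in the 42 members, in 7 other lists and among cycling-cell markers, with list medians (black), the median of all tested genes (dashed) and filled points for an adjusted p under 0.05. The median is 0.37 for the members and 0.20 for both lists of other assembly factors, and each cycling-cell marker lies left of 0; values are quantile-normalized.

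The product of the pathway was seen only through 3 control probe sets for 18S ribosomal RNA, and the spread between arrays was too wide to show a difference or its absence. The 3′ probe set was at 10.54, 9.75, 10.77 and 9.45 in starved arrays and 12.14, 8.09, 9.54 and 10.19 in control arrays. The controls alone spanned the whole range, from control A at the top to control B at the bottom. The differences were 0.13, 0.26 and 0.72 for the 3′, middle and 5′ probe sets (two-sided exact permutation tests, p = 0.886, 0.771 and 0.629, adjusted p = 0.886 for each, n = 4 per group), where the smallest p that 4 against 4 arrays allow is 0.0286. Single arrays set these values: the 3′, middle and 5′ differences were 0.86, 0.70 and 1.38 without control A and -0.50, -0.25 and -0.22 without control B, none past the threshold. No source used here says how far the labelling reached ribosomal RNA.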

How the data were processed

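RNA of 4 starved and 4 control myotube samples was measured on Affymetrix mouse arrays, 1 array each. The deposited table holds 1 intensity per probe set and array in linear units, without detection calls, made by the authors in a way not given in the sources used here. Trimmed means differed by up to 38% from their median. An offset of 10.9 (the 10th percentile) was added, log2 taken and arrays quantile normalized, which assumes that the spread of signals is alike in both groups. Control probe sets (64) did not enter the tests, which covered 13575 probe sets averaging over log2 6.61, the 40th percentile, and were run with limma 3.58.1 in R 4.3.3 (lmFit, eBayes with trend, Benjamini-Hochberg). Fold changes understate dim genes. Names come from the 2016 platform annotation, updated by gene number through RefSeq: 1 symbol was found for 20380 probe sets, several for 691 and none for 1555. A gene is its brightest tested probe set.

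The 47 genes, the other lists and the tests were chosen with earlier results of these data known. Given array by array are the 12 called genes with the largest change, the 2 with the largest change in each role and the 4 with the smallest change; of other lists, up to 3 called genes in each direction and Myc are named. Of the 42 genes 21 had 2 or more tested probe sets, which differed in call for 9 and in sign for 1 (Ncl). Replicate letters differ between the groups and pair nothing. Alternatives were 4 other scalings, of which centring on 6 spiked-in control probe sets was chosen after seeing the data, as well as other offsets, filters and eBayes settings, array weights, averaging the probe sets of each gene, and leaving out each array. The test was also run on simulated data with 13575 probe sets of this comparison. There limma recovered 28.4% of log2 changes of 0.5, 88.1% of changes of 1 and 98.5% of changes of 2, with 6 false among 149 calls. Few simulated probe sets were changed, as many up as down, and noise was independent between arrays. These rates may therefore not carry over to the real comparison. Python 3.11.15 and matplotlib 3.10.9 drew the figures. The number of arrays limits the precision.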

Additional observations from a re-analysis of the deposited data

Results flagged for a closer look

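Of 92 groups of 4 arrays examined (the 42 genes, Myc and the 18S probe sets in each condition), 4 held an array far from the other 3 by Dixon's test, where chance gives about 5%. In 3 of them it was control B, the array with the high Gapdh 3′ to 5′ ratio: it was at 7.55 for Nop16 (other controls 8.26 to 8.38), at 8.41 for Gar1 (8.75 to 8.82) and at 8.56 for Polr1c (8.17 to 8.19). Without control B the log2 fold changes were 0.37 for Nop16, 0.48 for Gar1 and 0.56 for Polr1c, with the same calls. The other array was starved H for Heatr1, at 9.57 (other starved arrays 9.31 to 9.35), and without it Heatr1 was at 0.15, again not past the threshold. The part of RNA quality in these values was not tested.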

How the results depend on the processing

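The median of the 42 genes was above 0 in each of the 20 alternatives, and without quantile normalization it stood 0.34 above the median of all genes, a gap that constants per array cannot change. It fell to 0.16 with centring on spiked-in controls and to 0.0012 in unscaled values. The number of genes that rose, 18 as reported, was 11 with median centring, 2 with spiked-in control centring and 1 in unscaled values, and it ran from 11 (without control A) to 19 (without control B) when 1 array was left out; no gene was called lower in any alternative. Among the other pathway genes the 6 rises became 1 in unscaled values, 3 with spiked-in control centring, 11 with the mean of probe sets and 13 with array weights, and they ran from 1 (without starved F or starved G) to 10 (without control B); 1 gene fell in unscaled values and 1 with spiked-in control centring. Apart from those 2 scalings, 8 of the 18 genes kept their call throughout (Rrp12, Nop58, Rrs1, Ddx21, Nop2, Imp3, Gar1 and Mybbp1a). In unscaled values Brix1 was at -0.034 and Npm1 at -0.033. Unscaled values keep the lower brightness of the starved arrays by construction; the cause of the other shifts was not tested. No paired analysis was possible because the replicate letters differ between the groups. Without detection calls, signal over background could not be judged.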
